A study of Mus musculus with 12 samples.

Results

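Homeostatic microglia genes are the genes by which resting microglia, the resident macrophages of the brain, are recognised, together with genes that microglia share with other myeloid cells. A list of 37 such genes was followed through an array study of the mouse cerebellum. Probe sets were assigned to the genes by the array annotation, and each gene was read from the probe set with the highest mean over all arrays. A probe set was assigned to 36 of the 37, and Lyn was not analysed here. After the 40% of probe sets with the lowest means were set aside, 23 of the 36 remained among 12672 genes tested, and 13 were dim. The filter lay at a log2 mean of 1.58. Lair1 (1.59) and Cd33 (1.64) lay just inside it, and Inpp5d (1.55), Aif1 (1.54) and Ptprc (1.51) just outside. Lair1 and Cd33 passed only through the 118Q knockin (means of 1.75 and 1.85), since their mean over the other 3 groups was 1.54 and 1.57. The filter thus favoured a positive difference for them in every comparison of the 118Q knockin.

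The study used knockin mice for spinocerebellar ataxia type 6, a disease caused by an expanded CAG repeat in Cacna1a, the gene of a calcium channel that Purkinje cells express strongly. Total RNA of the cerebellum was hybridised at 6 weeks of age on 12 arrays, in 4 groups of 3: MPI 118Q/118Q knockin mice, the wild type littermates of that line, MPI 11Q/11Q knockin mice, and the wild type littermates of that line. Both knockin groups carried the altered allele on both chromosomes, with a long repeat of 118 or a short one of 11 glutamine codons, and all 4 groups shared the C57BL/6 background. Sex and litter of the mice were not given in the sources used here.

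Microglia depend on signals from their neighbours. Csf1r receives the survival signals Csf1 and Il34, Cx3cr1 receives fractalkine from neurons, Tgfbr1 receives TGF-beta, which maintains the homeostatic state, and P2ry12 steers microglial processes towards nucleotides released at injury. The transcription factors Spi1 (PU.1), Irf8 and Sall1 hold the identity of the cells. In mouse models of disease, P2ry12, Tmem119 and Cx3cr1 are known to fall when microglia take on a disease-associated state, while Trem2, Tyrobp and complement C1q genes mark microglia more broadly or belong to that response.

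PU.1 binds short purine-rich motifs in promoters of myeloid genes, and the promoters of the members were read for them. RefSeq promoter windows on GRCm38.p6, running from 250 bases before an annotated start of a gene to 50 bases after it, were matched for 28 of the 37 genes (34 windows). The core GAGGAAG, on either strand, was found in 16 of the 34 windows (47.06%), and in 13.63% of all 32841 windows. Its shorter form GAGGAA, which every GAGGAAG contains, was found in 19 (55.88%), against 28.28% of all windows. The composite element of PU.1 with IRF8 was found in 0 of 34, against 2.716% of all. Of the 7 members at the top of the 118Q comparison below, Cd53, P2ry13 and Siglech had a window with GAGGAA and Ly86, P2ry12 and Sparc a window without it. All but the Sparc window are shown; capitals mark GAGGAA or, for a match on the opposite strand, TTCCTC. Each is written 5′ to 3′ on the strand of the gene. The Cd53 window lies at chr3:106790100-106790399 (minus strand), that of P2ry13 at chr3:59210833-59211132 (minus strand), that of Siglech at chr7:55767934-55768233 (plus strand), that of Ly86 at chr13:37345095-37345394 (plus strand) and that of P2ry12 at chr3:59262936-59263235 (minus strand).
Cd53: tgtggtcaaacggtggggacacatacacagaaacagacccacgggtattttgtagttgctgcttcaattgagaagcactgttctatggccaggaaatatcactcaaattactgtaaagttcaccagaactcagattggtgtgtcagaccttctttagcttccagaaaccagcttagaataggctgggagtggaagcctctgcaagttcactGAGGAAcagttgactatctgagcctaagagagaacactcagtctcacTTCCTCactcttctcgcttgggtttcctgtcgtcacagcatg
P2ry13: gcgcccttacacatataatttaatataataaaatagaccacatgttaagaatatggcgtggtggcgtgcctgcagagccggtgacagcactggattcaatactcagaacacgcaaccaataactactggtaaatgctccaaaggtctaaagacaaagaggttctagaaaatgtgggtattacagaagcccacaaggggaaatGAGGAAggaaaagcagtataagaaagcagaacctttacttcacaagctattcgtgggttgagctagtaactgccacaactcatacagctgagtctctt
Siglech: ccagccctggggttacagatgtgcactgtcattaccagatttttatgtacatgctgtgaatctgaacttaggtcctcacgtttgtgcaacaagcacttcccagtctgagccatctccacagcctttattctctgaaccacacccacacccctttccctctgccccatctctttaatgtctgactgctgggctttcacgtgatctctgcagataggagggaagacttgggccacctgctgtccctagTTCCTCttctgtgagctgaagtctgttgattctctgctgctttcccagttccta
Ly86: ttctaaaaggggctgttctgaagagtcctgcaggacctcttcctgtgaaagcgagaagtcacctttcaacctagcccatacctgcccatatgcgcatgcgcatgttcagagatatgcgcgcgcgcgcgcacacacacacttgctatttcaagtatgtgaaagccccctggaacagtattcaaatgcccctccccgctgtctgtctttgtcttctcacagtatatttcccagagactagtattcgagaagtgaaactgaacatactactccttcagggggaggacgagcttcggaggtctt
P2ry12: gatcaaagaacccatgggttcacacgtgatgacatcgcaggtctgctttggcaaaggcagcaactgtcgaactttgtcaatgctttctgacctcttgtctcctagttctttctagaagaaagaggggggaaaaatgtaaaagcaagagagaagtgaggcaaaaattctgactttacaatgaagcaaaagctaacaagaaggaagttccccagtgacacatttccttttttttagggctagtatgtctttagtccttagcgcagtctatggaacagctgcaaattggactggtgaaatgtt
The matches in these windows began 39 bases before and 8 bases after the start in Cd53, 48 bases before it in P2ry13 and 4 bases before it in Siglech. Each distance is from the start on which the window is set. For Siglech that is not the outermost start, since the gene is listed from base 55768154. A match describes letters in the window and is not a measured binding site.

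The arrays carried the mark of the labelled tissue, with a summed linear level of 5 granule cell markers of 5894 to 6308 on the 118Q knockin arrays and 6105 to 6516 on those of the littermates. Microglia are a small share of the cerebellum, so a difference in their genes in whole tissue can come from the number of cells or from the RNA per cell, and these cannot be told apart here. One technical measure moved with the groups: the signal of 18S ribosomal RNA averaged 8.80 ± 0.37 in the 118Q knockin arrays, against 9.92 ± 0.35 in the arrays of its littermates (log2, SD, n = 3 each; two-sided exact permutation p = 0.1, the smallest 3 against 3 can give). In the 11Q line it was 10.24 ± 0.13 for the knockin and 10.44 ± 0.17 for the littermates. Fits with it as a covariate are given below, and its part in the results was not tested further.

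In the 118Q knockin the microglia genes lay higher than in the littermates as a group, and no single one of them passed the test over all genes. Of the 23 measured members, 22 had a log2 difference above 0, which held for 60% of all genes tested. Their median difference was 0.25 (range -0.05 to 0.66), against 0.06 over all genes. Without Lair1 and Cd33, and without the other genes that passed the filter only through the 118Q knockin, it was 0.25 over 21 members with 20 above 0, against 59.8% of all genes. By limma with Benjamini-Hochberg adjustment, 0 of the 23 were called, where 0.189% of all genes were. At an unadjusted p below 0.05 stood 7 of 23 (30.4%), all higher, against 12% of all genes that were higher at that p. These were Nckap1l, Sparc, Ly86, P2ry12, Cd53, Siglech and P2ry13. In 7 members (30.4%) all 3 knockin arrays lay above all 3 littermate arrays, as did 15.1% of all genes, and in 0 members did they all lie below, against 7.24%.

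**Figure D1:**
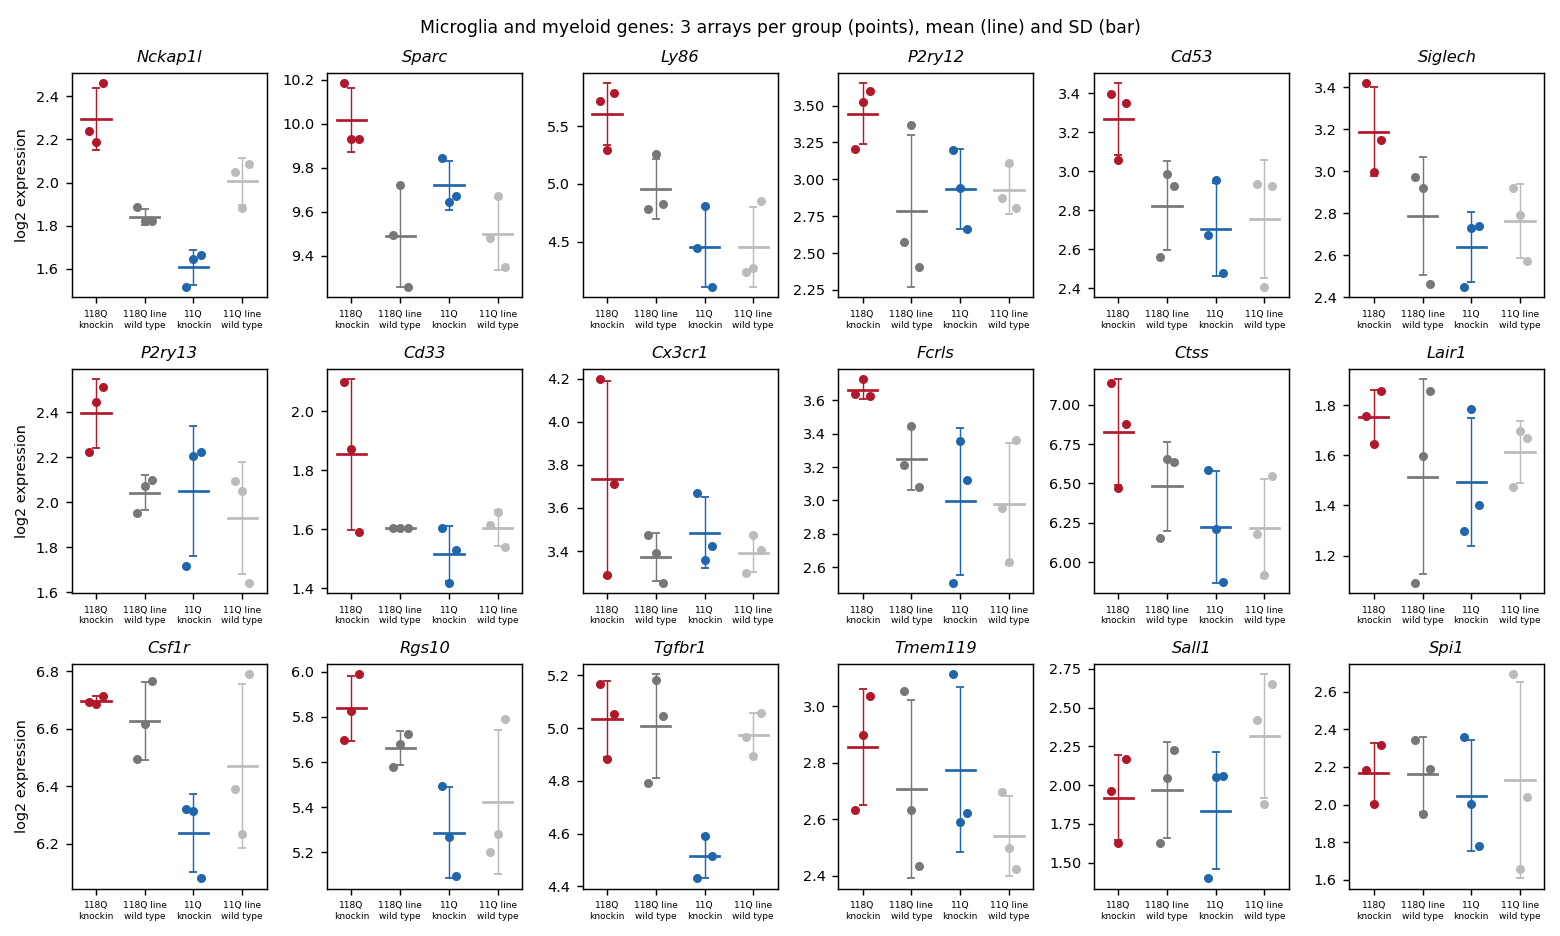
Log2 expression of 18 microglia and myeloid genes on each array (points), with the group mean (line) and SD (bar), for 118Q knockin, 118Q line wild type, 11Q knockin and 11Q line wild type, 3 arrays each. Each panel has its own axis, which does not start at 0; Nckap1l and Ly86 show the 118Q knockin arrays above those of the other 3 groups, and Sall1 and Spi1 show overlapping groups.

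Among the receptors, 6 of 9 were measured, with a median difference of 0.30 and all 6 above 0. P2ry12, the purinergic receptor for ADP, had 3.21, 3.52 and 3.60 on the 118Q knockin arrays, against 2.58, 3.37 and 2.40 on those of the littermates. One littermate array lay inside the knockin range, and the other 2 lay well below it. The difference of 0.66 ± 0.22 (SE) did not pass (adjusted p = 0.151). Leaving out 1 array of the line at a time gave 0.47 to 0.95 (adjusted p = 0.0489 to 0.406), and it passed only without littermate replicate 2, the high one (0.95); with the 18S signal as covariate it was -0.22. P2ry13, a related ADP receptor next to it on chromosome 3, had 2.22, 2.45 and 2.51 in the knockin, against 1.95, 2.07 and 2.10 in the littermates. The groups did not overlap, and the difference was 0.35 ± 0.16 (adjusted p = 0.257).

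Cx3cr1, the fractalkine receptor, had 4.20, 3.29 and 3.71 in the 118Q knockin and 3.47, 3.39 and 3.25 in the littermates. Knockin replicate 1 was high and replicate 2 lay inside the littermate range. Its difference was 0.36 ± 0.18 (adjusted p = 0.314), and 0.13 without knockin replicate 1. Csf1r, the receptor on which microglia depend for survival, had 6.69, 6.69 and 6.72 in the knockin, against 6.50, 6.62 and 6.77 in the littermates, a difference of 0.07 ± 0.14 (adjusted p = 0.815). Tgfbr1 likewise overlapped, with 5.17, 4.88 and 5.05 in the knockin, against 4.79, 5.18 and 5.05 in the littermates (0.03 ± 0.12, adjusted p = 0.926). Mertk, a receptor for the engulfment of dead cells, differed by 0.25 ± 0.19 (adjusted p = 0.519).

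Of 12 other surface proteins 8 were measured, with a median of 0.33 and all 8 above 0. Without Lair1 and Cd33, which the filter favours, the median of the other 6 was 0.41. Ly86, also called MD-1, the partner of a Toll-like receptor relative on myeloid and B cells, had 5.72, 5.30 and 5.79 in the 118Q knockin, against 4.78, 5.25 and 4.83 in the littermates. The knockin arrays all lay above, with littermate replicate 2 close below knockin replicate 2. The difference was 0.65 ± 0.22 (adjusted p = 0.151). Cd53, a tetraspanin of leukocytes, had 3.39, 3.06 and 3.35 in the knockin and 2.56, 2.98 and 2.92 in the littermates, a difference of 0.45 ± 0.18 (adjusted p = 0.206). Siglech, a sialic acid-binding receptor of microglia and plasmacytoid dendritic cells, had 3.42, 3.00 and 3.15 in the knockin and 2.97, 2.92 and 2.46 in the littermates. Its groups were separate by a small gap, and the difference was 0.40 ± 0.16 (adjusted p = 0.208).

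Fcrls, an Fc receptor-like protein used as a marker of microglia, was even within the 118Q knockin, at 3.64, 3.73 and 3.62, and was 3.21, 3.45 and 3.08 in the littermates. The groups did not overlap, and the difference was 0.41 ± 0.21 (adjusted p = 0.316). Tmem119, the membrane protein often used to tell microglia from blood-derived macrophages, overlapped throughout, with 2.63, 2.90 and 3.04 in the knockin, against 3.05, 2.63 and 2.44 in the littermates (0.15 ± 0.18, adjusted p = 0.696). Cd33, an inhibitory sialic acid receptor, had 2.10, 1.87 and 1.59 in the knockin, and 1.60 on each littermate array. Its difference was 0.25 ± 0.12 (adjusted p = 0.291). Lair1, an inhibitory collagen receptor, had 1.76, 1.65 and 1.86 in the knockin and 1.09, 1.60 and 1.86 in the littermates (0.24 ± 0.18, adjusted p = 0.508). Selplg, the ligand of P-selectin, differed by 0.04 ± 0.15.

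Of the 3 transcription factors 2 were measured, with differences near 0 and standard errors as large as the members' median. Sall1, which keeps microglia from becoming other macrophages, had 1.96, 1.63 and 2.17 in the 118Q knockin, against 1.63, 2.04 and 2.23 in the littermates, and a difference of -0.05 ± 0.24 (adjusted p = 0.939). Spi1 had 2.18, 2.00 and 2.32 in the knockin and 2.34, 1.95 and 2.19 in the littermates, a difference of 0.01 ± 0.23 (adjusted p = 0.99). Irf8, the partner of PU.1, was dim and below the filter, at 1.64, 1.39 and 1.30 in the knockin and 1.25, 1.74 and 1.51 in the littermates. The groups of each of these 3 genes overlapped.

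In the cytoplasm, Nckap1l (HEM1), a subunit of the WAVE complex that drives actin assembly in blood cells, had the smallest p of the members. It had 2.24, 2.19 and 2.46 in the 118Q knockin, against 1.89, 1.82 and 1.82 in the littermates. The knockin arrays lay apart from the littermate arrays, of which replicates 2 and 3 held the same deposited value. Its difference was 0.45 ± 0.10 (adjusted p = 0.0693), and 0.37 to 0.51 when 1 array of the line was left out (adjusted p = 0.0374 to 0.269), passing only without knockin replicate 1. Rgs10, a brake on G protein signalling that is abundant in microglia, had 5.70, 5.83 and 5.99 in the knockin and 5.58, 5.68 and 5.73 in the littermates, a difference of 0.18 ± 0.16 (adjusted p = 0.579). Only these 2 of the 7 listed cytoplasmic genes were measured above the filter.

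Lysosomal, matrix and lipid mediator genes were measured for 5 of 6, with a median of 0.23 and all 5 above 0. Sparc, a matrix protein that endothelium and astrocyte-lineage cells also make, had 10.18, 9.93 and 9.93 in the 118Q knockin, against 9.50, 9.72 and 9.26 in the littermates. The groups did not overlap, and the difference was 0.53 ± 0.14 (adjusted p = 0.0871). Ctss, the lysosomal protease cathepsin S, had 7.14, 6.47 and 6.87 in the knockin and 6.16, 6.66 and 6.63 in the littermates (0.34 ± 0.22, adjusted p = 0.436). Laptm5, a lysosomal membrane protein of haematopoietic cells, Olfml3, a secreted matrix protein of microglia, and Ltc4s, the leukotriene C4 synthase, differed by 0.23, 0.16 and 0.11, with adjusted p-values of 0.67, 0.641 and 0.82.

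**Figure D2:**
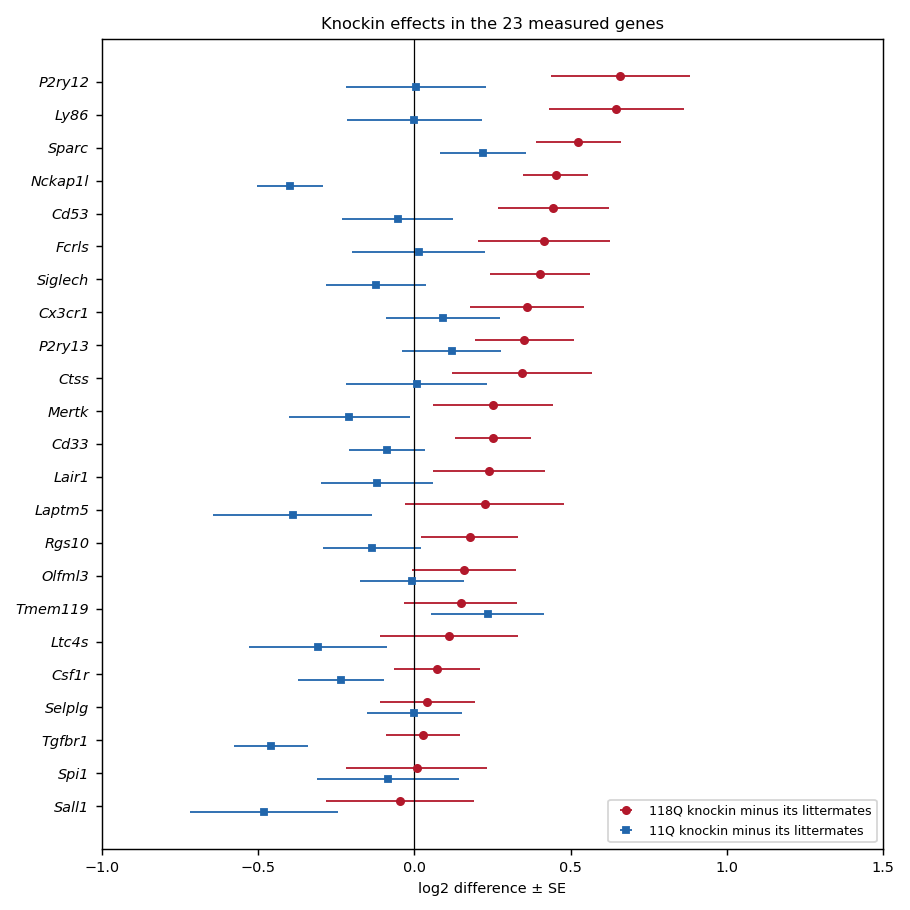
Log2 difference between knockin and littermates (horizontal axis, bars are SE) for the 23 measured genes in the 118Q line (circles) and in the 11Q line (squares), ordered by the 118Q difference. The 118Q differences run from -0.05 (Sall1) to 0.66 (P2ry12) with 22 above 0, and the 11Q differences have 8 above 0.

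In the 11Q line no member passed the test. The median difference of the 23 members was -0.08, against -0.04 over all genes, and 8 (34.8%) lay above 0, against 40.7% of all genes. Without the filter 18 of 36 members (50%) lay above 0, against 45.3% of all genes. By limma 0 of 23 were called, as were 0% of all genes, of which 536 had an unadjusted p below 0.05. At that p stood Nckap1l and Tgfbr1, both lower, among 3.13% of all genes that were lower. Nckap1l had 1.51, 1.64 and 1.66 in the 11Q knockin, against 2.05, 1.88 and 2.08 in its littermates. All knockin arrays lay below all littermate arrays, and the difference was -0.40 ± 0.10 (adjusted p = 0.939). Tgfbr1 had 4.43, 4.59 and 4.52 in the knockin and 4.97, 4.89 and 5.06 in the littermates (-0.46 ± 0.12, adjusted p = 0.939). These were also the only 2 members whose groups were separate, both below, against 7.17% of all genes. Sall1 (-0.48), Laptm5 (-0.39), Ltc4s (-0.31) and Csf1r (-0.23) also had negative differences, each with an adjusted p of 0.939. Some other probe sets of Tgfbr1, Sall1, Laptm5 and Csf1r differed in the opposite direction, as given below. Tmem119 (0.23) and Sparc (0.22) had the 2 highest differences in this line.

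The difference between the knockin effects of both lines was tested directly as an interaction. Its median over the members was 0.36, against 0.08 over all genes, and 22 of 23 lay above 0, against 62.3% of all genes. Lair1 (0.36) and Cd33 (0.34), which the filter favoured through the 118Q knockin, are among those above 0. By limma 0 of the 23 were called (0% of all genes, 1392 of which had an unadjusted p below 0.05), and Nckap1l, Tgfbr1 and Siglech had an unadjusted p below 0.05, against 8.09% of all genes that were higher at that p. Nckap1l had the smallest, with an effect 0.85 ± 0.15 higher in the 118Q line (adjusted p = 0.134). The values were 0.49 ± 0.17 for Tgfbr1 (adjusted p = 0.355) and 0.53 ± 0.23 for Siglech (adjusted p = 0.429). In Tgfbr1 the 11Q knockin stood low while the other 3 groups had means between 4.97 and 5.03. In Nckap1l the 118Q knockin mean of 2.29 was the highest of the 4 and the 11Q knockin mean of 1.61 the lowest.

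Set directly against each other, the 118Q knockin was higher than the 11Q knockin in all 23 members, against 62.5% of all genes. This comparison shares its arrays with both knockin effects and is not independent of them. Lair1 (0.26) and Cd33 (0.34) are among the 23, and the filter favoured a positive difference for them here too. The median difference was 0.51, against 0.09 over all genes. By limma 6 of 23 (26.1%) were called, all higher, where 10.1% of all genes were called higher and 13.7% in either direction. In 11 members (47.8%) the groups did not overlap, all above, against 26.5% of all genes.

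Ly86 had the largest difference of the 6. Its 118Q knockin values of 5.72, 5.30 and 5.79 stood against 4.44, 4.81 and 4.11 in the 11Q knockin, a difference of 1.15 ± 0.22, or 2.21-fold (adjusted p = 0.00902). Nckap1l rose by 0.69 ± 0.10 (adjusted p = 0.00586). Tgfbr1 was higher by 0.52 ± 0.12 (adjusted p = 0.0174), with the 118Q knockin at the level of both wild types. These 3 genes span a surface protein, an actin regulator and a cytokine receptor. Rgs10 had 5.70, 5.83 and 5.99 in the 118Q knockin and 5.50, 5.27 and 5.09 in the 11Q knockin (0.55 ± 0.16, adjusted p = 0.0376). Siglech had 3.42, 3.00 and 3.15 in the 118Q knockin and 2.45, 2.73 and 2.74 in the 11Q knockin (0.55 ± 0.16, adjusted p = 0.0418). Csf1r had 6.69, 6.69 and 6.72 in the 118Q knockin and 6.32, 6.31 and 6.08 in the 11Q knockin, the call nearest the threshold (0.46 ± 0.14, adjusted p = 0.0453). For each of these 6 genes the groups did not overlap.

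The calls depended on single arrays. Leaving out each of the 6 knockin arrays in turn gave 2 to 5 called members, where 2.52% to 17.9% of all genes were called, and Ly86 and Nckap1l were called in all 6 fits. Csf1r and Siglech were called in none of these fits. With the 18S signal as covariate 0 genes of all 12672 were called, the median member difference was 0.58 (all genes 0.15), and 19 of the 23 members lay above 0. Olfml3 (0.54, adjusted p = 0.0504), Cd53 (0.57, adjusted p = 0.0516) and Fcrls (0.67, adjusted p = 0.0539) lay just beyond the threshold with groups that did not overlap. Cx3cr1 (0.25), Spi1 (0.12), Sall1 (0.08) and Tmem119 (0.08) were the 4 members with the smallest differences.

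**Figure D3:**
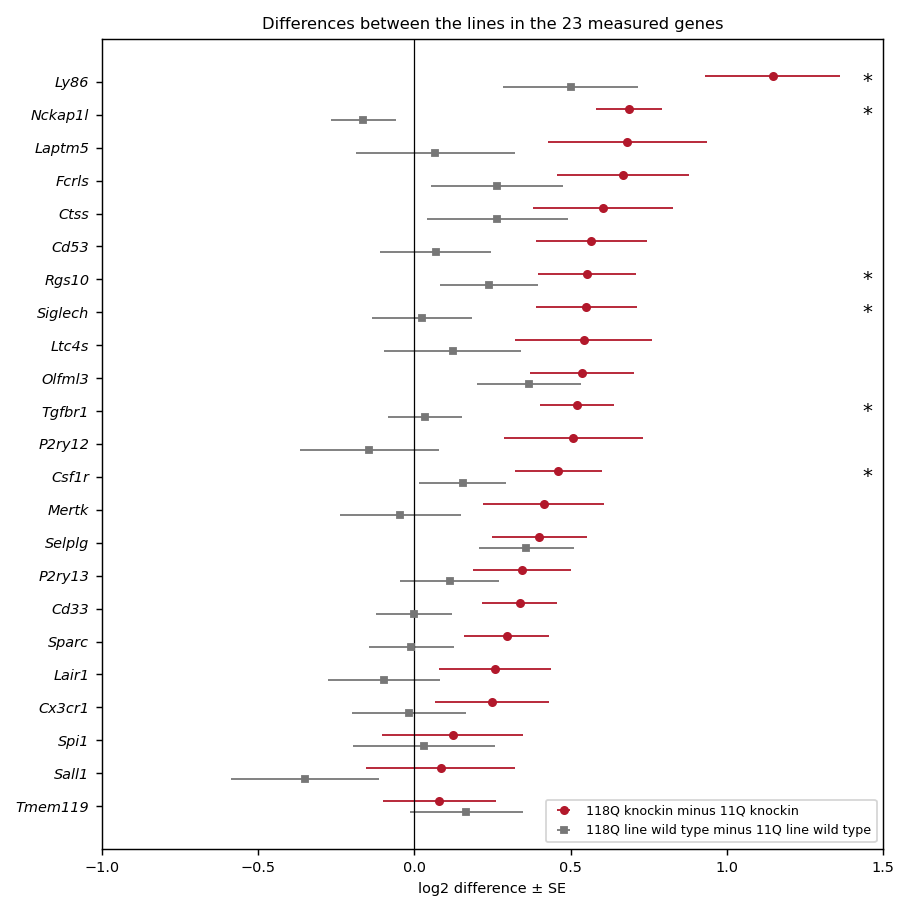
Log2 difference between the lines (horizontal axis, bars are SE) for the 23 measured genes, 118Q knockin minus 11Q knockin (circles) and 118Q line wild type minus 11Q line wild type (squares). Stars mark the 6 genes called at an adjusted p below 0.05 between the knockins; all 23 circles lie above 0, and 15 squares do.

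The wild types of the lines were compared to see how far the lines differ without the knockin. By limma 0 of 23 members were called (0% of all genes, 378 of which had an unadjusted p below 0.05), and the median difference, 118Q line minus 11Q line, was 0.07, against 0.01 over all genes. Of the members, 15 lay above 0, against 52.9% of all genes. Ly86 (0.50 ± 0.22), Olfml3 (0.37 ± 0.17) and Selplg (0.36 ± 0.15) had an unadjusted p below 0.05 and were higher in the 118Q line wild types (adjusted p = 1 for each), against 1.9% of all genes higher at that p. Selplg thus differed by 0.40 between the knockins and by 0.36 between the wild types, and its knockin effects were 0.04 in the 118Q line and 0.00 in the 11Q line. Ly86 had 4.78, 5.25 and 4.83 in the wild types of the 118Q line and 4.24, 4.27 and 4.85 in those of the 11Q line, with overlap.

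Across single arrays, the members' median deviation from their 12-array means was 0.29, 0.18 and 0.31 on the 118Q knockin arrays and -0.05, 0.08 and -0.003 on those of the littermates. On the 11Q knockin arrays it was -0.21, -0.13 and -0.27, and on those of the littermates -0.03, -0.06 and -0.01. The 118Q knockin arrays were thus the highest 3 of the 12 and the 11Q knockin arrays the lowest 3. Over all 36 members without the filter, 11Q knockin replicate 1 (-0.049) lay above 3 wild type arrays (-0.053 to -0.064). The highest array lay in the 118Q knockin for 16 of 23 members (69.6%), against 43.1% of all genes. The lowest array lay in the 11Q knockin for 15 (65.2%), against 30.8% of all genes, and in the 118Q knockin for 0, against 24.7% of all genes. The medians and counts over 23 members include Lair1 and Cd33, which the filter favoured through the 118Q knockin.

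**Figure D4:**
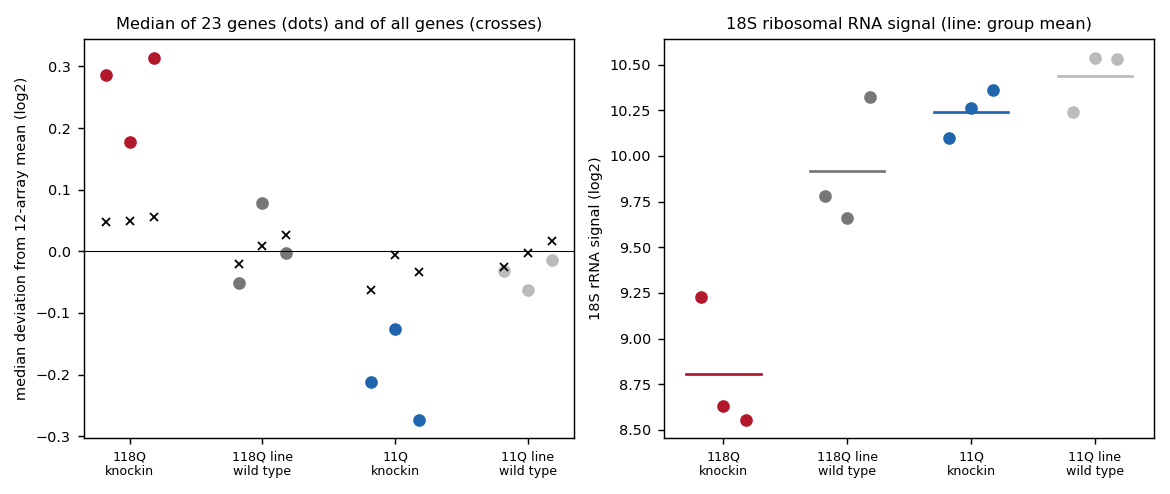
Left, the median deviation from the 12-array mean of the 23 members (dots) and of all genes (crosses) on each array, in log2 units. Right, the 18S ribosomal RNA signal of each array (log2) with group means as lines; the 118Q knockin arrays have the highest member medians (0.18 to 0.31) and the lowest 18S signal (8.56 to 9.23).

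With the 18S signal as covariate the 118Q median of the members was 0.32 with 19 above 0, and the median of all genes 0.08. Of all genes, 0 were then called in the 118Q comparison. In that fit P2ry12 (-0.22), Tmem119 (-0.58), Selplg (-0.57) and Spi1 (-0.37) turned below 0, and Sall1 (0.32) above it. The 11Q median was then -0.11 with 7 members above 0, and that between the wild types 0.10 with 15 above 0. The covariate itself differed between the groups compared, so what the 2 share cannot be told apart.

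The 13 dim members were P2ry6, Gpr34, Entpd1, Itgam, Itgb2, Ptprc, Cd37, Irf8, Aif1, Inpp5d, Vav1, Dock2 and Hpgds. Their median 118Q difference was -0.01, from -0.16 to 0.54, with 6 above 0. Their median 11Q difference was 0.09, with 10 above 0. Fitted without the filter (18194 genes), 28 of 36 members had a 118Q difference above 0, against 58.5% of all genes, and the median was 0.21, against 0.04 for all genes. In 9 of the 36 the knockin arrays all lay above the littermate arrays, against 12.2% of all genes. Gpr34, a lysophosphatidylserine receptor of microglia, had 1.67, 1.65 and 2.11 in the 118Q knockin, against 0.89, 1.68 and 1.25 in the littermates (0.54 ± 0.17, adjusted p = 0.184). Aif1, the source of the microglial stain Iba1, had 2.22, 1.71 and 2.28 in the knockin, against 1.54, 1.67 and 1.42 in the littermates (0.53 ± 0.19, adjusted p = 0.212). Without the filter both were called between the knockins, at 0.67 for Gpr34 (adjusted p = 0.0345) and 0.71 for Aif1 (adjusted p = 0.0347), where 6.17% of all genes were called higher. Aif1 and Gpr34 are named here because of these values. Itgam, Ptprc and Itgb2, surface proteins shared by most leukocytes, differed by -0.03, 0.05 and 0.30 in the 118Q line.

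Several genes had more than 1 probe set. For Csf1r 2 further probe sets lay above the filter, with differences of 0.18 and 0.20 between the 118Q knockin and its littermates, and of 0.58 (adjusted p = 0.00852) and 0.43 (adjusted p = 0.129) between the knockins. A second bright Sparc probe set differed by 0.34 in the 118Q line and a dimmer one by 0.08. For Laptm5 3 further ones gave 0.02, 0.48 and 0.01, and the one used, of a type that can bind related transcripts, gave 0.23. A dim second Nckap1l probe set differed by 0.22 in the 118Q line and by 0.03 in the 11Q line, where the one used differed by -0.40. In the 11Q line the 2 further Csf1r probe sets gave -0.22 and 0.14, where the one used gave -0.23. The 3 further ones of Laptm5 gave -0.14, 0.27 and 0.13, against -0.39 for the one used. Dim ones of Tgfbr1 gave 0.11 and 0.16, against -0.46, and a dim one of Sall1 gave 0.15, against -0.48. Between the knockins the dim Tgfbr1 ones gave -0.08 each, against 0.52.

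Other cell markers were read beside these genes. Microglia markers outside the list (C1qa, C1qb and C1qc, the chains of complement C1q, and the receptor pair Trem2 and Tyrobp) had 118Q differences of 0.59 to 1.03, with 5 of 5 above 0. Trem2 rose, with 3.82, 3.46 and 3.58 in the 118Q knockin, against 2.97, 2.94 and 2.63 in the littermates (0.77 ± 0.13, adjusted p = 0.0465). Tyrobp did not pass (1.03 ± 0.19, adjusted p = 0.0549). Their summed linear level was 153 to 231 on the 118Q knockin arrays, against 95.9 to 131 on those of the littermates. Between the knockins all 5 were called higher, by 0.84 to 1.32, where 10.1% of all genes were called higher. All 5 were also higher in the 118Q line wild types than in those of the 11Q line (median 0.29), and 0 were called there. Above 0 between the wild types lay 52.9% of all genes.

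Myeloid cells other than microglia share several of the members. Of 9 markers of border and perivascular macrophages 7 were above the filter, with Cd163 and Lyve1 below it. The median 118Q difference of these 7 was 0.05 with 0 at an unadjusted p below 0.05. The summed linear level of all 9, dim ones included, was 32.5 to 35.2 in the knockin, against 31.6 to 33.8 in the littermates. Of 18 blood cell markers 6 were above the filter, with a median of 0.30 and 5 above 0. The sum over all 15 with a probe set, dim ones included, was 51.9 to 64.3 in the knockin, against 39.7 to 48.2 in the littermates. S100a9, an abundant neutrophil protein, had 3.66, 3.83 and 3.04 in the knockin and 2.64, 1.81 and 2.87 in the littermates (1.07 ± 0.30, adjusted p = 0.104). S100a8 (0.92) and Ngp (0.48), also of neutrophils, were separate too and did not pass, while Ltf, another neutrophil gene, was separate in the opposite direction (-0.11, adjusted p = 0.723). S100a9 was also separate between 11Q knockin and littermates (0.69) and between the wild types of the 118Q and 11Q lines (1.12), and did not pass there either. The lymphocyte markers Cd3d, Cd2, Cd79a, Cd79b, Ms4a1 and Nkg7 lay below the filter, as did the granule genes Camp, Mpo and Elane. Cd3e, a T cell marker, lay above it, with 2.06, 2.56 and 2.19 in the 118Q knockin. Its littermates had 2.21, 2.11 and 2.16, and the groups overlapped. The part of blood cells in the members' differences was not tested.

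Endothelial and mural cells also make Sparc. The median 118Q difference over their 14 markers was -0.46 with 0 above 0, and their sum was 453 to 563 in the knockin, against 606 to 733 in the littermates. Flt1, a VEGF receptor, fell by 0.95 (SE 0.16, adjusted p = 0.0465). Astrocyte and Bergmann glia markers had a median of 0.01 over 11, with 6 above 0, and a sum of 5905 to 6379 in the knockin, against 5960 to 6752 in the littermates. Of 8 Purkinje cell markers 1 lay above 0, and their median was -0.70. Choroid plexus markers varied most between arrays, with sums of 457 to 3725 for the 118Q knockin and 123 to 4090 for the littermates. In the 11Q line that sum was 78.7 to 3697 in the knockin and 3960 to 4150 in the littermates.

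Genes that work with the members were followed as a further list of 60 ligands, co-receptors, transcription factors and signalling proteins, of which 39 were tested. Their median 118Q difference was 0.04 with 21 above 0, against 60% of all genes, and 0 were called, where 0.189% of all genes were. Tgfb3, a ligand of Tgfbr1, had 4.45, 4.42 and 4.60 in the 118Q knockin, against 4.13, 3.97 and 3.76 in the littermates (0.53 ± 0.17, adjusted p = 0.14). Coro1a, an actin regulator of leukocytes, differed by 0.32 (adjusted p = 0.211). Mef2c, a transcription factor of microglia and neurons, had 5.07, 4.79 and 4.76 in the knockin and 5.36, 5.32 and 5.59 in the littermates (-0.55 ± 0.12, adjusted p = 0.0609). Tgfbr2, the second TGF-beta receptor, differed by -0.43 (adjusted p = 0.237).

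Of the other ligands named above, the 118Q differences were 0.04 for Cx3cl1, 0.05 for Csf1 and -0.04 for Il34, and Tgfb2, a further ligand of the TGF-beta receptors, had -0.27 (adjusted p = 0.591). In the 11Q line Csf1 (0.40) and Cx3cl1 (0.37) had an unadjusted p below 0.05 and groups that did not overlap (adjusted p = 0.939 for each). Over all genes, 1.1% were higher at that p and 3.24% were separate above the littermates. Of the 39 tested partners, 2 were higher at that p and 1 lower. Between the knockins 1 of the 39 was called higher in the 118Q knockin and 1 lower, where 10.1% and 3.6% of all genes were. Tgfb3 was the one called higher (0.79 ± 0.17, adjusted p = 0.014). Cd47, the ligand by which neurons restrain phagocytes, was the one called lower (-0.54 ± 0.15, adjusted p = 0.0327).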

How the data were processed

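Total RNA from the cerebellum of 12 mice, with an RNA integrity number above 5.0 and DNase treatment per the labels' protocols, was labelled with biotin and measured on 1 array per sample. The deposited table gives log2 signals by probe set; per the submitters' processing notes the authors used RMA, and the version is not given in the sources used here. Array medians lay between 2.21 and 2.38, lower than RMA usually gives, so values, above all of dim probe sets, are read as relative levels; no further normalization was applied. Of 45101 probe sets, 34958 had 1 gene symbol in the platform annotation, 932 several and 9211 none listed. The 40% with the lowest mean were removed, and the brightest probe set of each symbol was kept.

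A group-means model was fitted with limma 3.58.1 in R 4.3.3 (8 residual and 4.61 prior degrees of freedom), two-sided, with Benjamini-Hochberg adjustment over all 12672 genes and calls below 0.05. Errors of differences are standard errors of this model. The number of arrays, 3 per group, limits the precision, and p-values measure the spread between these arrays only. The fit was run on simulated data with planted changes, and the share of small changes that it recovered is not given here. Members and lists were chosen with earlier results of these data known, so medians, counts and shares describe and do not test them. Values by array are given for members called in any comparison, the 12 with the smallest p in the 118Q comparison and the 7 that define the cells, and for other lists up to 4 genes by smallest p. Cx3cl1, Csf1, Il34, Tgfb2, Ltf, Cd3e and Cd47 are named outside this rule, after their values were seen. Alternatives were other filters, probe set means, centring, quantile normalization, an intensity trend, array weights, fits of only the groups compared, a replicate block, the 18S signal as covariate, a threshold of 0.1 and leaving out arrays. The deviations of same-numbered arrays within a line had correlations of -0.11 to -0.03 in the 118Q line and -0.17 to 0.19 in the 11Q line. With 3 arrays per group and no litter given, these cannot show whether the numbers pair the mice. The main fit treated the mice as unpaired. Promoter sequences are from RefSeq on GRCm38.p6.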

Additional observations from a re-analysis of the deposited data

Results flagged for a closer look

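The effect of the knockin on Nckap1l differed between the lines by 0.85 ± 0.15 in the interaction term (limma, adjusted p = 0.134), with knockin arrays all above the littermate arrays in the 118Q line and all below them in the 11Q line. The probe set used had a 12-array mean of 1.94, near the filter at 1.58. A second one, below the filter, gave 0.19 for the difference of effects, with 0.22 in the 118Q line and 0.03 in the 11Q line.

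Some probe sets outside the comparisons of the 23 measured genes had all 3 118Q knockin arrays above all 3 littermate arrays. Among the 13 dim genes these were Aif1 (difference 0.53) and Hpgds, a prostaglandin D2 synthase (0.19). Among second probe sets they were Csf1r (0.18), Laptm5 (0.48) and a dim one of Lair1 (0.44). Other second probe sets overlapped, and a dim one of Cx3cr1 differed by -0.19. Without the filter, such separation above the littermates was found in 12.2% of all genes, each read from its brightest probe set. The share over second probe sets of all genes was not computed.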

How the results depend on the processing

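Without the filter, the 11Q median was -9.41e-05 over 36 genes, and the median between the knockins was 0.37. In the 11Q line 3 of the 36 were then separate below the littermates (8.33%, against 6.06% of all genes). Inpp5d was the 1 separate above them (2.78%, against 3.92%). With the lowest 60% removed, 10 members were left, of which 2 had an unadjusted p below 0.05 and 2 were separate in the 118Q line, and 1 was separate in the 11Q line. With array weights 5 members were called in the 118Q line (18.7% of all genes), 11 had an unadjusted p below 0.05, 1 was called for the difference of effects and 18 between the knockins (47.3% of all genes), the 11Q median was -0.017, and Sall1 turned to 0.16. With the 18S signal the 118Q median was 0.32 (2 members at an unadjusted p below 0.05), that of the difference of effects 0.44 and that between the knockins 0.58 with 0 called; P2ry12 (-0.22), Tmem119 (-0.58), Selplg (-0.57), Sall1 (0.32) and Spi1 (-0.37) turned their sign. At an adjusted p below 0.1, 2 members were called in the 118Q line (3.09% of all genes) and 13 between the knockins (22.8%). Without wild type replicate 3 of both lines 11 members were separate in the 118Q line and 4 in the 11Q line, with Selplg at -0.060 and Sall1 at 0.085. With quantile normalization Tgfbr1 was -0.012. Csf1r was not called between the knockins without the filter (adjusted p = 0.0537) or with arrays centred on their median (0.0681), nor was Rgs10 then (0.0561). The cause of these changes was not tested. Some counts here and in the next paragraph have no share of all genes beside them. Those counts cannot be set against the other genes and are not read as results about the members.

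Leaving out each array in turn gave 0 to 1 members called in the 118Q line (0.0316% to 5.58% of all genes), 5 to 8 at an unadjusted p below 0.05, 7 to 11 separate and a median of 0.20 to 0.30. In the 11Q line 3 to 6 were separate (with fewer arrays such counts can only stay or rise), and the median was -0.16 to -0.046. The median was 0.31 to 0.44 for the difference of effects, 0.43 to 0.51 between the knockins, where 2 to 5 were called (2.52% to 17.9% of all genes), and 0.036 to 0.14 between the wild types. The 118Q difference changed sign in these fits for Tgfbr1 (-0.079 to 0.11), Spi1 (-0.098 to 0.099), Selplg (-0.060 to 0.17), Sall1 (-0.22 to 0.10) and Ltc4s (-0.13 to 0.32). With the replicate number as a replicate block, 0 members were called in the 118Q line, 5 had an unadjusted p below 0.05, and 5 were called between the knockins, without Csf1r (adjusted p = 0.0525). Dim signal limits 13 members, whose 12-array means lie below the filter.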

Other observations

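The deposited table holds identical values on different arrays for some genes. Among the 12672 genes tested, 10.9% had a value shared by at least 2 of the 12 arrays, from 2.71% of the brightest 25% to 23.6% of the dimmest 25%. Of the 23 members, 5 had one (Cx3cr1, Tmem119, Cd33, Lair1 and Nckap1l). In Nckap1l littermate replicates 2 and 3 of the 118Q line shared 1.82, and in Cd33 the same 2 arrays and replicate 1 of the 11Q knockin shared 1.60. The spread of Nckap1l among the 118Q line littermates, an SD of 0.038, was the smallest of its 4 groups. What produced the shared values was not tested.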
